A study of Mus musculus with 18 samples.

Results

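The 9 genes described here encode transcription factors and nuclear receptors that hepatocytes use to set their own expression program, and their RNA was measured by RNA-seq in mouse liver after lipopolysaccharide (LPS). They were taken by symbol from the 21441 genes of the liver FPKM table, and all 9 symbols were found. They are Hnf4a, Foxa2 and Onecut1, the C/EBP genes Cebpa, Cebpb and Cebpd, the xenobiotic receptor genes Nr1i2 (PXR) and Nr1i3 (CAR), and Rxra, whose product pairs with both receptors. Livers came from male C57BL/6 mice whose age is not given in the sources used here. The 3 groups were control (10% DMSO vehicle by gavage and a saline injection), LPS (10 mg/kg into the peritoneum) and LPS+MIC-1. In the last group the same LPS dose followed 3 days of MIC-1 by gavage at 80 mg/kg in 10% DMSO. Vehicle gavage of the LPS group is not listed separately in the sources used here. MIC-1 is moringa isothiocyanate-1, purified from moringa seed. Groups held 6 mice, tissue was taken 16 h after the injection, and 3 liver libraries per group were sequenced, so each group is a single time point and a single dose. A set of 9 libraries of RAW264.7 cells, a mouse macrophage-like line, served for the comparison of the C/EBP genes, again with 3 libraries for control, LPS and LPS+MIC-1 (10 µM MIC-1 in the column names). The labels of these cultures repeat the doses of the mouse experiment, and the LPS concentration of the sequenced cultures is not given in the sources used here.

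Hepatocytes keep their identity through a network of liver-enriched factors that bind each other's promoters and the genes of albumin, clotting factor, bile acid and glucose metabolism. HNF4A, FOXA2 and HNF6 (the product of Onecut1) belong to this network, and C/EBPα is the C/EBP factor of the resting hepatocyte. In the acute-phase response, interleukin-6 and interleukin-1 signal to the hepatocyte and raise C/EBPβ and C/EBPδ, which bind the genes of acute-phase proteins. PXR and CAR sense drugs, bile acids and other small molecules, bind DNA as heterodimers with RXRα and drive cytochrome P450, conjugation and transporter genes, and inflammation is known to lower drug metabolism in the liver.

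The stretch before the RefSeq start site is shown for 4 of the genes whose level differed between control and LPS, to set the genes that fell beside 1 that rose. Each line gives 250 bases before the start in the build GRCm38.p6, on the strand of the gene, with matches to any of 11 searched motifs in capitals and positions counted back from the start (-1 is the base before it).
Nr1i3, chr1:171213720-171213969, plus strand: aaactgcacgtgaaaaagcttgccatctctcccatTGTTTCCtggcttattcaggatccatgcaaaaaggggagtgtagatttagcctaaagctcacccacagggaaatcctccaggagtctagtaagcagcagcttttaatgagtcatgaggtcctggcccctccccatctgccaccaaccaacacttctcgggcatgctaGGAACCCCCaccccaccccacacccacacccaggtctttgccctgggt
Nr1i2, chr16:38294825-38295074, minus strand: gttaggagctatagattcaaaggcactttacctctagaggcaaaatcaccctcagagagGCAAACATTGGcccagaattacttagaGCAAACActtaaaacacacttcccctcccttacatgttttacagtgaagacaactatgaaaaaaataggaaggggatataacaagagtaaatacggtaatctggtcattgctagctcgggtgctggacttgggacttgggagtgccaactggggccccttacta
Onecut1, chr9:74861671-74861920, plus strand: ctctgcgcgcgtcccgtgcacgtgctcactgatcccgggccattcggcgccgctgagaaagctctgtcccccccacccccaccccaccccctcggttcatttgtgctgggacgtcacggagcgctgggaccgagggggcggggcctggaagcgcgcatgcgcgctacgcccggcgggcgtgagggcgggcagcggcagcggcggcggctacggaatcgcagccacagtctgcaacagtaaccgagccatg
Cebpb, chr2:167688665-167688914, plus strand: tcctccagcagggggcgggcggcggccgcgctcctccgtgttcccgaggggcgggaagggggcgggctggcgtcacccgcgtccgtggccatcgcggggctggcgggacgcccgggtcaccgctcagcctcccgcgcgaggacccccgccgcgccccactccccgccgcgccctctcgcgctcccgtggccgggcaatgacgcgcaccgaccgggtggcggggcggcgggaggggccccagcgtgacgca
The G and C bases made up 44% of the Nr1i2 stretch, 53.2% of that of Nr1i3, 71.6% of that of Onecut1 and 81.6% of that of Cebpb. The motifs were searched on both strands as letters: the C/EBP core TTNCNNAA, the CCAAT box CCAAT, the HNF4 site CAAAGTCCA, the FOX core TGTTTNC, the HNF6 core ATTGATT, the HNF1 element GTTAAT, the nuclear receptor element AGGTCA, the STAT core TTCNNNGAA, the NF-kB core GGGNNTTCC, the CRE core TGACGTCA and the TATA box TATAAA. Nr1i3 held the FOX core at -215 and the NF-kB core at -48. Nr1i2 held the FOX core at -191 and -164 and a CCAAT box at -185, which overlaps the farther FOX match by its end base. Of 32851 RefSeq promoter windows, each the 250 bases before a start, 17.8% held the FOX core, 33.8% the CCAAT box and 4.98% the NF-kB core, so FOX and CCAAT matches are common. None of the 11 strings occurred in the windows of Onecut1 and Cebpb, and the C/EBP core, found in 36.8% of all windows, occurred in none of the 4. Hnf4a, with 2 start sites in the table, held 3 matches to the C/EBP core (2 of them overlapping), 1 to the FOX core and 1 to the HNF6 core (2.61% of all windows) before the upstream start, and 2 to the HNF1 element (6.43%) before the downstream start, with a CCAAT box before each (-192 and -216). A match describes letters, not a bound site. Promoters of 8 of the 9 genes were in the table, and Cebpd had no entry.

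In the mm9 build of the deposited values, as annotated in GENCODE, Hnf4a lies at chr2:163332544-163398646, Onecut1 at chr9:74709728-74737591 and Nr1i3 at chr1:173144101-173150832, all on the plus strand. Nr1i2 lies on the minus strand at chr16:38248409-38294910. The C/EBP genes are compact, Cebpb at chr2:167514415-167515918 and Cebpd at chr16:15887379-15888559. FPKM values are sums over all transcripts of a gene, per length, so exons, introns and isoforms are not told apart here.

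Libraries are numbered within a group by their order in the table, because the columns carry the treatment but no replicate number. The normalized reads behind the liver libraries, estimated from the authors' mean counts, ran from 8.08 to 13.5 M. LPS library 2 stood apart from the other LPS libraries in both tables. In liver, control library 1 and LPS+MIC-1 library 2 stood apart within their groups too. Over 4242 liver genes whose LPS libraries 1 and 3 differed from control by more than 1 log2 unit, LPS library 2 lay at 0.48 of the way from control to LPS, and the LPS+MIC-1 libraries at 0.73 to 0.84. In RAW264.7 cells LPS library 2 lay at 0.07 over 3596 such genes. In both cases the genes were chosen and scaled by LPS libraries 1 and 3, so libraries outside that choice tend to lie below 1. The positions therefore do not measure a return toward control with MIC-1. Libraries 1 and 3 of LPS and of LPS+MIC-1 were close to each other, with squared differences of 7.69 and 2.22 times the sampling variance in liver. Control libraries 2 and 3 stood at 8.19 times, and every other pair within a group at 49.6 to 119.6 times. Control library 1 was at 89.1 and 108.5 times from control libraries 2 and 3. LPS library 2 was at 112.0 and 119.6 times from LPS libraries 1 and 3. The close pairs exceeded sampling noise and were counted separately, but their distance does not show that they are independent mice, and p-values measure the spread between these libraries. Deviations from the group mean also correlated between library 2 of LPS and library 2 of LPS+MIC-1 (r = 0.32 in liver across 10147 genes, which are not independent). Control library 1 with LPS library 1 was at 0.31. LPS library 2 was at 0.25 with control library 3 and at 0.13 with control library 2, so likeness did not follow the library number. All 9 hepatocyte markers, among them albumin and transthyretin, were above 1 FPKM in at least 1 library of every liver group, with a summed level of 44993 to 94767 FPKM.

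In control liver, the mean levels in FPKM, which are per length and so can be compared between genes, ran in the order Nr1i3 (78.6), Nr1i2 (43.9), Hnf4a (37.7), Onecut1 (32.4), Cebpb (24.8) and Cebpd (3.33). Neighbours from Nr1i3 down to Cebpb had overlapping control ranges, so their order is not set by these libraries. Cebpb (20.5 to 30.8 FPKM) and Cebpd (2.28 to 3.88 FPKM) did not overlap. Foxa2, Rxra and Cebpa stood lowest. Foxa2, a forkhead factor that opens chromatin in early liver development, was at 5.64, 0 and 0 FPKM in control, 3.15, 2.59 and 0.902 in LPS and 0.913, 0 and 6.08 in LPS+MIC-1. Values from 0 to several FPKM thus occurred within a group, and no more than about 132 normalized reads stood behind any of them. Rxra, the common heterodimer partner, was at 2.17, 0 and 0 FPKM in control, 1.98, 0.965 and 1.07 in LPS and 1.54, 0.922 and 0 in LPS+MIC-1. Cebpa, the C/EBP gene of the resting hepatocyte, was listed at 0 in 7 of 9 liver libraries and at 0.0278 and 0.0293 FPKM in LPS+MIC-1 libraries 1 and 3. These zeros are values of the table and not a measure of absence, since Ywhaz, a gene that most cells use (named after its values were seen), was listed at 0 in 3 liver libraries and at no more than 2.19 FPKM in the others. Cebpa has 5 curated RefSeq transcripts, the most of the 9 genes, and Cebpd and Onecut1 have 1 each; the part of the number of transcripts in these zeros was not tested. Cebpa and Rxra did not pass the filter on a mean above 1 FPKM, and the other 7 genes were tested. The grid of points by library shows all 9 genes.

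**Figure D1:**
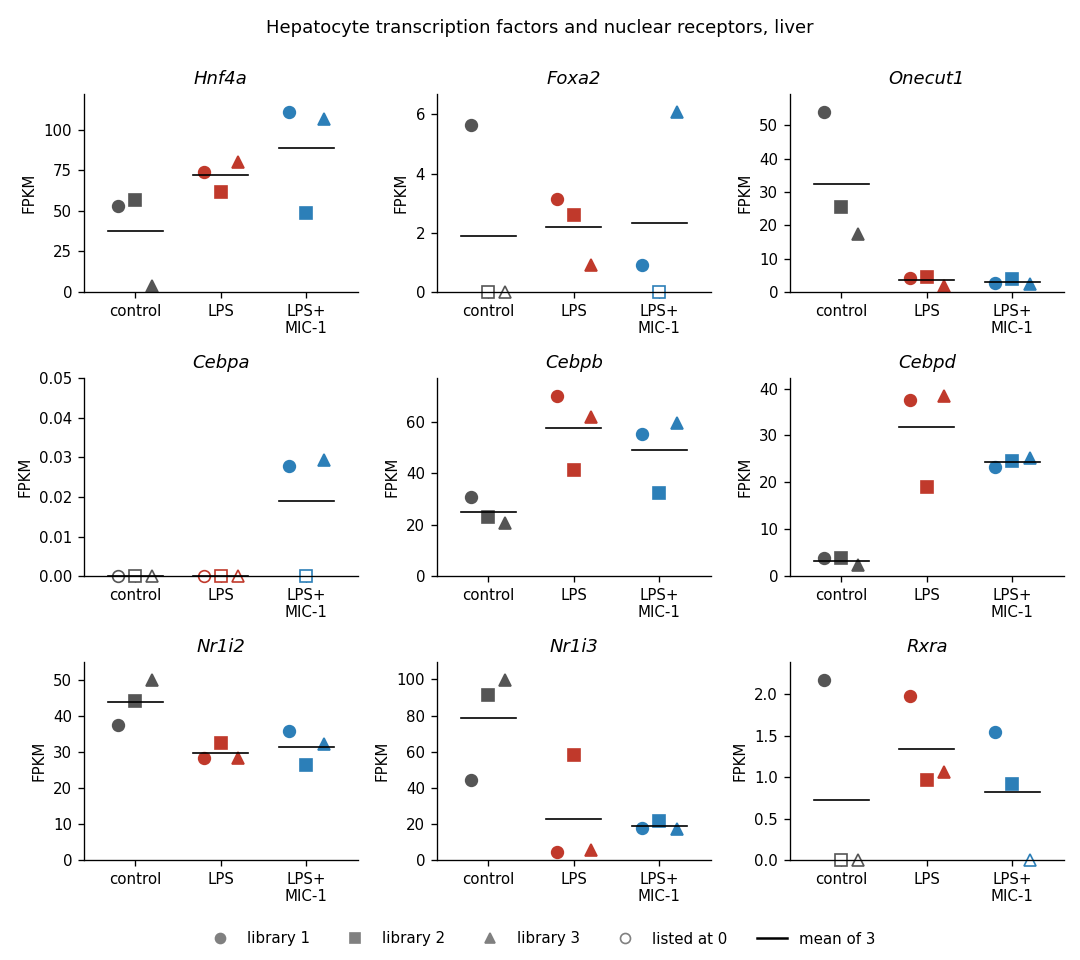
FPKM (linear axis, from 0) of the 9 genes in each liver library by group, with circles, squares and triangles for libraries 1, 2 and 3, open symbols for values listed at 0 and a line at the mean of 3. Onecut1 and Nr1i3 are highest in control and Cebpb and Cebpd lowest there, Cebpa lies below 0.03 FPKM throughout, and LPS library 2 of Nr1i3 (58.0 FPKM) sits among the controls.

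The comparison of LPS with control asks which of these genes differ in liver 16 h after the injection. The C/EBP genes Cebpd and Cebpb rose, and Onecut1, Nr1i3 and Nr1i2 fell. Limma on log2(FPKM + 0.5), with Benjamini-Hochberg adjustment over 10147 genes and a threshold of 0.05, called 5 of the 7 tested genes, 2 higher and 3 lower, where 34.7% of all tested genes were called, 19.2% higher and 15.5% lower. Of the 7 genes, 5 had LPS values wholly apart from the control values (Hnf4a, Cebpb and Cebpd above, Onecut1 and Nr1i2 below), as had 45.0% of all tested genes. Rescaling FPKM to an equal sum in every library left 31.2% of all calls on the higher side, against 55.3% as deposited, and moved the median of all genes from 0.15 to -0.18 log2 units, while the 5 genes stayed called in the same direction. For a single gene the exact permutation test of 3 against 3 libraries cannot go below p = 0.1. Because liver was measured in bulk, fewer cells of a type and less RNA per cell cannot be told apart.

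Cebpd, a C/EBP factor of the acute-phase response, was at 3.88, 3.83 and 2.28 FPKM in control and at 37.6, 19.1 and 38.4 FPKM in LPS. Every LPS library lay above every control library, library 2 lowest of the 3. The log2 fold change was 3.03 (SE 0.30, adjusted p = 0.000631, limma), with a 95% interval of 2.35 to 3.71. Cebpb, its partner in that response, was at 30.8, 23.1 and 20.5 FPKM in control and at 70.2, 41.4 and 61.9 FPKM in LPS, again without overlap. Its log2 fold change was 1.19 (SE 0.30, adjusted p = 0.0187, limma). The call of Cebpd held when any library was left out (2.82 to 3.36), and that of Cebpb was lost without control library 2, control library 3, LPS library 1 or LPS library 3, where its log2 fold change was 1.04 to 1.15 and the adjusted p from limma 0.0614 to 0.0732. Neutrophil markers moved with these genes. Of 6 tested markers, 5 were called higher, S100a8 among them (5.53, adjusted p = 0.000456, limma), and Cxcr2, which made up most of the control sum, was called lower (-2.30, adjusted p = 0.0049), from a mean of 35.1 to 7.05 FPKM. Of 7 markers in the table, 4 passed 1 FPKM in at least 1 control library and 6 in at least 1 LPS library, Csf3r was listed at 0 in all controls, and the summed level was 36.5 to 52.0 FPKM in control, 349 to 440 in LPS and 189 to 453 in LPS+MIC-1. Kupffer cell and macrophage markers summed to 32.7 to 59.6 FPKM in control, 44.3 to 63.8 in LPS and 56.0 to 103 in LPS+MIC-1, with 7, 7 and 6 of 7 above 1 FPKM in at least 1 library and Emr1 listed at 0 throughout LPS+MIC-1. Within that sum Clec4f (-2.11, adjusted p = 0.0062) and Vsig4 (-1.47, adjusted p = 0.0125) were called lower and Marco (3.01, adjusted p = 0.00306) higher with LPS, by limma. The part of these cells in the rise of Cebpb and Cebpd was not tested.

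Onecut1, which encodes the cut-homeodomain factor HNF6, was at 54.0, 25.5 and 17.5 FPKM in control and 4.19, 4.67 and 1.94 FPKM in LPS. The groups were far apart although the controls themselves spanned more than a factor of 3, and about 36 to 86 normalized reads stood behind the LPS values. The log2 fold change was -2.92 (SE 0.44, adjusted p = 0.0035, limma), and the call held without any library (-3.27 to -2.47). Hnf4a, the nuclear receptor at the centre of the hepatocyte network, was at 52.9, 56.6 and 3.53 FPKM in control and at 74.0, 61.9 and 80.0 FPKM in LPS. All LPS values lay above all control values, but control library 3 was far below the other controls, while its summed hepatocyte markers lay between those of the other controls. The log2 fold change of 1.64 (SE 0.91, adjusted p = 0.184, limma) did not pass, with an interval of -0.44 to 3.73. Leaving out 1 library at a time gave 0.38 to 2.30 and no call, the lowest value without control library 3. Foxa2, at 1.12 (SE 1.16, adjusted p = 0.467, limma), did not pass either.

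Nr1i3, which encodes CAR, was at 44.5, 91.5 and 99.7 FPKM in control and at 4.67, 58.0 and 5.51 FPKM in LPS. LPS libraries 1 and 3 lay far below the lowest control, whereas LPS library 2 lay between the controls, so the groups overlapped. The log2 fold change was -2.61 (SE 0.83, adjusted p = 0.0398, limma). Without LPS library 2 it was -3.74 (SE 0.34, adjusted p = 0.00048, limma). The call was lost without any of 7 other libraries (all but control library 1 and LPS library 2), at -2.61 to -1.99 and adjusted p-values from limma of 0.0554 to 0.139. Nr1i2, which encodes PXR, changed less, from 37.6, 44.2 and 49.95 FPKM to 28.3, 32.5 and 28.3 FPKM. The ranges did not overlap, and the log2 fold change was -0.55 (SE 0.18, adjusted p = 0.0468, limma). This call was lost without control library 2 or 3, LPS library 1 or 3, or LPS+MIC-1 library 1 or 3, at -0.55 to -0.45 and adjusted p-values from limma of 0.0675 to 0.143. Averaging the close libraries 1 and 3 of LPS and of LPS+MIC-1 as 1 sample left Onecut1 (-2.81, adjusted p = 0.0324) and Cebpd (2.87, adjusted p = 0.0141) called and ended the limma calls of Cebpb (adjusted p = 0.104), Nr1i2 (0.205) and Nr1i3 (0.182). Over all 10147 tested genes the number called fell with this averaging from 3520 to 631. Without LPS library 2, limma called the same 5 genes, where 49.0% of all tested genes were called.

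**Figure D2:**
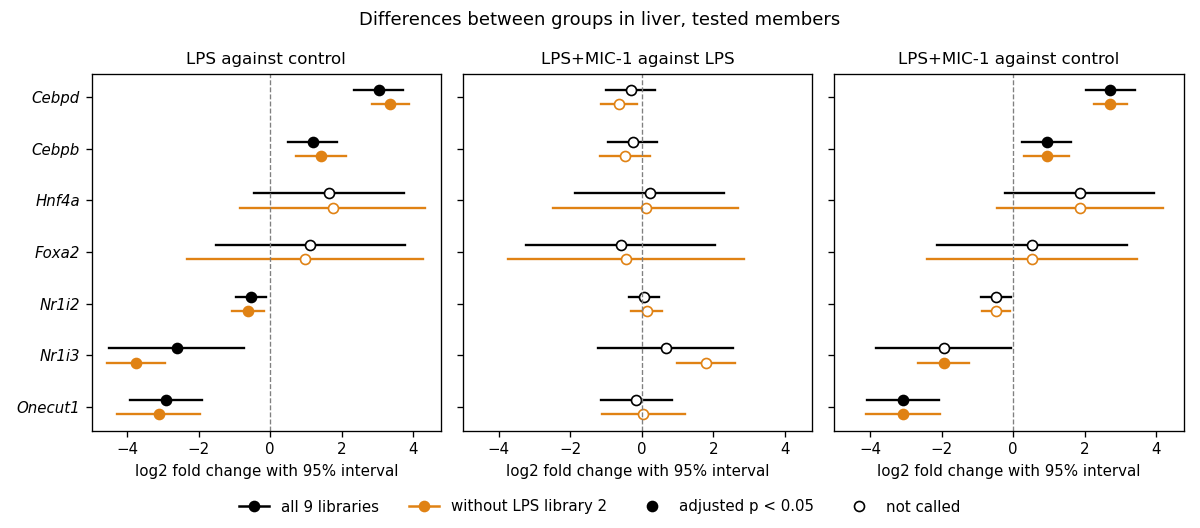
Log2 fold change (on log2(FPKM + 0.5), limma) with 95% interval for the 7 tested genes in the 3 comparisons in liver, over all 9 libraries (black) and without LPS library 2 (orange), with filled points for an adjusted p below 0.05. Cebpd and Cebpb lie right of 0 and Onecut1 left of it against control, no interval of all 9 libraries excludes 0 between LPS+MIC-1 and LPS, and Nr1i3 moves to -3.74 and 1.80 without LPS library 2.

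The comparison of LPS+MIC-1 with LPS asks whether pretreatment with MIC-1 changed these levels under LPS. Limma called 0 of the 7 tested genes and 0.00% of all tested genes, with 364 genes at an unadjusted p below 0.05 and a smallest adjusted p of 0.0546. The ranges overlapped for all 7 genes, where 9.75% of all tested genes did not overlap. Cebpd was at 23.2, 24.5 and 25.2 FPKM in LPS+MIC-1, between LPS library 2 (19.1) and LPS libraries 1 and 3 (37.6 and 38.4), with a log2 fold change of -0.31 (95% interval -0.99 to 0.37). Without LPS library 2 it was -0.64 (SE 0.22, adjusted p = 0.241, limma). Nr1i3 was at 17.9, 21.9 and 17.3 FPKM, above LPS libraries 1 and 3 and below LPS library 2, so its direction rests on that library. The mean FPKM was lower in LPS+MIC-1 (19.0 against 22.7), while the log2 fold change was 0.67 (95% interval -1.22 to 2.56). Without LPS library 2 it was 1.80 (SE 0.34, adjusted p = 0.0857, limma), still not called, where limma called 36 genes or 0.355%. The intervals of the other genes were -0.93 to 0.44 for Cebpb, -1.15 to 0.85 for Onecut1, -0.34 to 0.49 for Nr1i2, -1.86 to 2.30 for Hnf4a and -3.24 to 2.06 for Foxa2. The intervals of Nr1i2, Cebpb and Cebpd over all libraries leave out a change of 1 log2 unit in both directions. With LPS library 2 left out those of Cebpb (-1.17 to 0.23) and Cebpd (-1.15 to -0.12) did not, nor with close libraries averaged (-1.21 to 0.67 and -1.09 to 0.80). Those of Onecut1, Nr1i3, Hnf4a and Foxa2 allow a change of that size in at least 1 direction.

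Against control, LPS+MIC-1 livers showed the same directions for the called genes. Limma called 3 of the 7 genes, Cebpb and Cebpd higher and Onecut1 lower, where 36.4% of all tested genes were called, 20.1% higher and 16.3% lower. Values lay wholly apart for 5 of the 7, 2 above and 3 below, as they did for 54.6% of all tested genes. With FPKM rescaled to an equal sum, 17.6% of all calls were higher, against 55.2% as deposited, and Cebpb was no longer called (0.30, adjusted p = 0.423, limma). This comparison shares its controls with that of LPS, so the values stand side by side and are no second measurement. Cebpd had a log2 fold change of 2.72 (SE 0.30, adjusted p = 0.00102, limma) and Onecut1, at 2.78, 4.01 and 2.41 FPKM in LPS+MIC-1, had -3.07 (SE 0.44, adjusted p = 0.00256, limma). Cebpb, at 55.4, 32.4 and 59.7 FPKM, was at 0.94 (SE 0.30, adjusted p = 0.0392, limma), and LPS+MIC-1 library 2 lay just above the highest control. That call was lost without control library 2 or 3, LPS library 3, or LPS+MIC-1 library 1 or 3 (0.78 to 0.94, adjusted p = 0.0563 to 0.133, limma). It was also lost with quantile normalization, with no filter, with a threshold of 0.01 and with a minimum log2 fold change of 1. Nr1i2, at 35.7, 26.5 and 32.2 FPKM, lay below every control with a log2 fold change of -0.48 that did not pass (adjusted p = 0.0717, limma), and passed without control library 1 (-0.58, adjusted p = 0.0354). Rescaling, scaling by the median of ratios, quantile normalization and array weights each made Nr1i2 pass too (adjusted p = 0.00444 to 0.0425, limma). Nr1i3 lay below every control too, at -1.94 (SE 0.83, adjusted p = 0.0957, limma), with an interval of -3.83 to -0.05. It passed without LPS library 2, which is not in this comparison but enters the shared estimate of spread (SE 0.31, adjusted p = 0.00309, limma), where 45.2% of all tested genes were called. Nr1i3 passed as well after rescaling, with only the compared groups fitted and with array weights. Hnf4a, at 110.8, 49.0 and 106.8 FPKM, had a log2 fold change of 1.86 with an interval of -0.22 to 3.94.

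In RAW264.7 cells Cebpb and Cebpd were expressed, Rxra was low, and the other members were not seen above traces. Hnf4a, Foxa2 and Cebpa were listed at 0 in all 9 libraries, and Nr1i2, Nr1i3 and Onecut1 were at no more than 0.177, 0.0676 and 0.0434 FPKM. Cebpa was listed at 0 in 7 of 9 liver libraries too, so its zeros here are not taken as absence. Rxra was at 0.692, 1.51 and 0.708 FPKM in control, 4.79, 0.507 and 4.16 in LPS and 1.66, 0.274 and 1.00 in LPS+MIC-1, with LPS library 2 below every control, and it passed in no comparison over all libraries (adjusted p = 0.223, 0.254 and 0.952, limma). Leaving out LPS library 2, it was called higher in LPS than in control (1.80, adjusted p = 0.00551, limma) and lower in LPS+MIC-1 than in LPS (-1.87, adjusted p = 0.00549). Levels in the liver and macrophage tables were normalized separately and are set side by side without a test.

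Cebpb was at 41.9, 61.6 and 37.6 FPKM in control RAW264.7 cells, 150.9, 59.2 and 152.3 in LPS and 149.1, 120 and 141.8 in LPS+MIC-1. LPS library 2 lay within the controls and the other LPS libraries at more than a factor of 2 above the highest control. Limma called 0 of the 2 tested C/EBP members between LPS and control and 0.00% of all 9905 tested genes, with 4928 genes at an unadjusted p below 0.05; the log2 fold change of Cebpb was 1.26 (SE 0.37, adjusted p = 0.0777). Without LPS library 2 it was 1.71 (SE 0.20, adjusted p = 0.000111, limma) and both genes were called, where 75.2% of all tested genes were called. Liver Cebpb had a log2 fold change of 1.19 in the same contrast.

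Cebpd was called higher in liver in that contrast and was not called in RAW264.7 cells, without a test of the difference. Its interval in RAW264.7 cells, -0.76 to 0.36 over all libraries, sets no direction. In RAW264.7 cells it was at 16.2, 22.4 and 16.5 FPKM in control and at 13.7, 23.6 and 12.0 FPKM in LPS, where libraries 1 and 3 lay below every control and library 2 above. The log2 fold change was -0.20 (SE 0.24, adjusted p = 0.503, limma), and -0.49 (SE 0.14, adjusted p = 0.0131, limma) without LPS library 2, beside 3.03 in liver. With MIC-1 it was at 45.0, 43.6 and 44.7 FPKM, above every LPS and control library. Such separation was common in these cells. In either direction, 36.1% of all tested genes had LPS+MIC-1 values wholly apart from their LPS values. For separation from the control values the share was 66.4%. Limma called Cebpd between LPS+MIC-1 and LPS, at 1.47 (SE 0.24, adjusted p = 0.00646), and not Cebpb, at 0.30 (SE 0.37, adjusted p = 0.575), where 21.6% of all tested genes were called. The call of Cebpd held without any library (1.28 to 1.76) and was at 1.76 without LPS library 2, where 68.0% of all tested genes were called; Cebpb was then at -0.15. Averaging the close libraries ended the call of Cebpd (1.32, adjusted p = 0.0943, limma), where 163 of 9905 tested genes were called. In these cells libraries 1 and 3 stood at 3.20 times the sampling variance in LPS and 1.89 times in LPS+MIC-1. Control libraries 1 and 3, at 1.79 times, were closer and were not averaged. With FPKM rescaled to an equal sum, Cebpb was called too (0.79, adjusted p = 0.0356, limma) and 77.6% of all calls were higher, against 47.2% as deposited. The summed neutrophil markers were also highest with MIC-1, at 690.5 to 756.3 FPKM in LPS+MIC-1, nearly all of it S100a8 (651.5 to 718.2 FPKM). They summed to 3.16 to 5.19 FPKM in control and 5.36 to 43.3 in LPS, a contrast in which Cebpd was not called. In control, LPS and LPS+MIC-1, 2, 3 and 4 of 7 markers were above 1 FPKM, and Ngp was listed at 0 in control and LPS. RAW264.7 is a cell line, so these genes do not count neutrophils here, and a link to Cebpd was not tested. In liver the same contrast had Cebpd at -0.31 with no call.

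Between LPS+MIC-1 and control, limma called both C/EBP genes in RAW264.7 cells, Cebpb at 1.56 (SE 0.37, adjusted p = 0.0194) and Cebpd at 1.27 (SE 0.24, adjusted p = 0.00932), where 24.8% of all tested genes were called, and 60.3% without LPS library 2. The call of Cebpb was lost without control library 1 or 3 or LPS+MIC-1 library 1 or 3 (1.42 to 1.53, adjusted p = 0.0707 to 0.0792, limma) and with close libraries averaged (adjusted p = 0.0818). That of Cebpd was lost after rescaling to an equal sum (adjusted p = 0.128, limma) and with close libraries averaged (1.26, adjusted p = 0.0528). With close libraries averaged, 718 of 9905 tested genes were called. Of the other family members, Cebpe, a factor of late granulocytes, was at 8.03, 9.70 and 13.5 FPKM in control liver and fell with LPS by 1.46 on the log2 scale (adjusted p = 0.0112, limma), to 2.90, 5.44 and 2.42 FPKM. In RAW264.7 cells Cebpe was called between LPS+MIC-1 and LPS (1.38, SE 0.42, adjusted p = 0.0493, limma) and not between LPS and control (-0.74, adjusted p = 0.175), where it was called lower without LPS library 2 (-1.28, adjusted p = 0.000202). Ddit3, which encodes the stress factor CHOP, rose in liver with LPS (2.03, SE 0.39, adjusted p = 0.00752, limma), from a mean of 18.3 to 79.2 FPKM; in RAW264.7 cells its log2 fold change of 2.10 did not pass (adjusted p = 0.0777), and without LPS library 2 it passed (2.86, adjusted p = 2.03e-05, limma). Cebpg did not pass in liver with LPS (0.37, adjusted p = 0.132, limma), but passed without LPS library 2 (0.53, adjusted p = 0.0121). In RAW264.7 cells it did not pass with LPS either (0.18, adjusted p = 0.29, limma) and passed without that library (0.29, adjusted p = 0.00917). It was called between LPS+MIC-1 and control in liver (0.63, adjusted p = 0.0243) and in RAW264.7 cells (0.71, adjusted p = 0.00819). Of these 3 genes, 2 were called higher between LPS+MIC-1 and LPS in RAW264.7 cells over all libraries, at a list median of 0.53. With close libraries averaged, 0 of the 3 were called in RAW264.7 cells in any comparison. In liver, 1 was then called higher and 0 lower between LPS and control. The plot of the family in both tables shows these values.

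**Figure D3:**
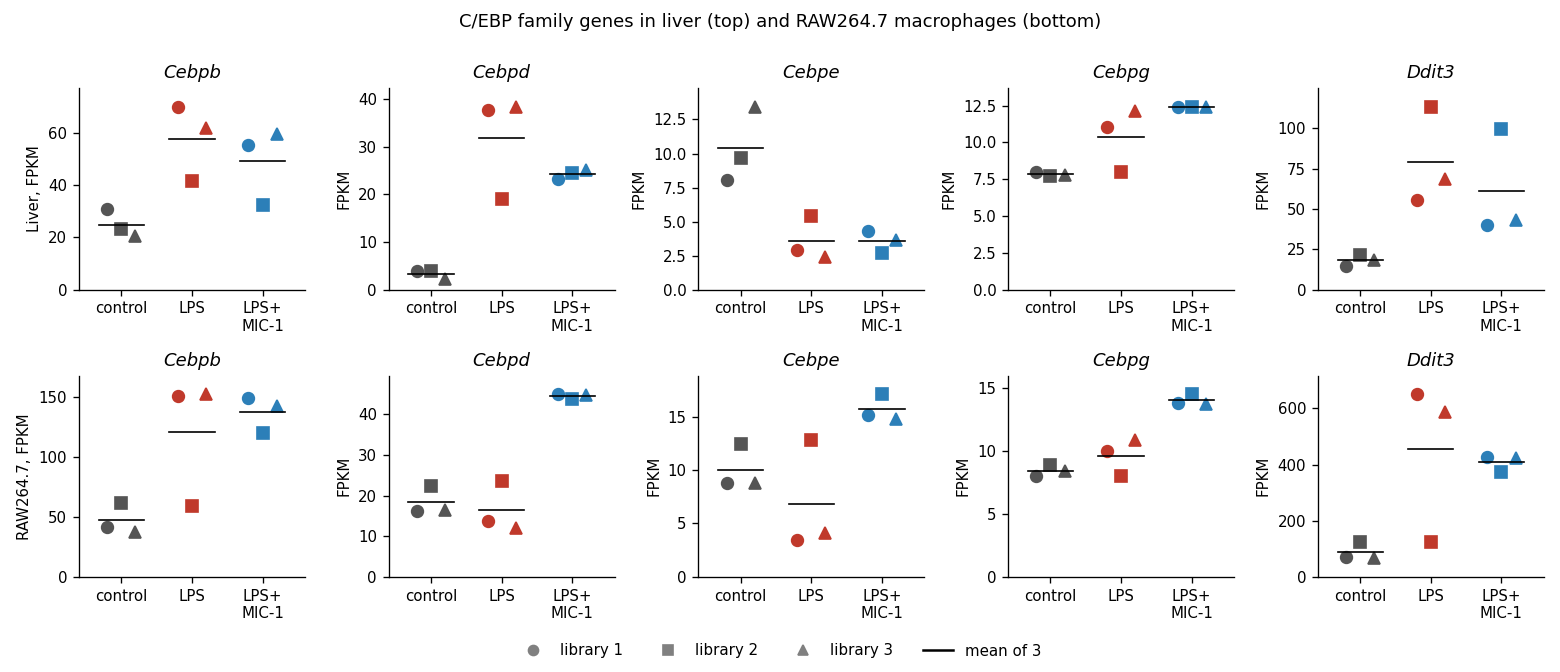
FPKM (linear axes, from 0, scaled per panel) of 5 C/EBP family genes in each library of liver (top) and RAW264.7 cells (bottom), symbols for libraries 1 to 3 and a line at the mean of 3. Cebpd is highest with LPS in liver and highest with LPS+MIC-1 in RAW264.7 cells (43.6 to 45.0 FPKM), and LPS library 2 of RAW264.7 cells lies with the controls in Cebpb and Ddit3.

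Genes around the 9 members were counted in lists by role, for LPS against control in liver, where 34.7% of all tested genes were called. Acute-phase genes that C/EBP factors bind rose together: all 12 tested were called higher, with a median log2 fold change of 3.84 beside 0.15 over all tested genes. With the close libraries averaged as above, 5 of the 12 were called, at a median of 3.66, where 631 of 10147 tested genes were called. Orm1, which encodes orosomucoid, went from a mean of 2099 (SD 957) to 21344 (SD 4738) FPKM, n = 3 each, and Hpx, which encodes the heme carrier hemopexin, from 2600 to 23963. Complement C3 (1.87, adjusted p = 0.00262, limma) and the fibrinogen gene Fgg (3.54, adjusted p = 0.0054) were further examples. Of 10 tested genes that carry the cytokine signal to the C/EBP genes, 4 were called higher, 0 lower and 6 not (median 0.61): Socs3, the feedback inhibitor of this pathway (2.51, SE 0.26, adjusted p = 0.000742), the interleukin-1 receptor Il1r1 (2.32, adjusted p = 0.00262), Stat3 (1.74, adjusted p = 0.00567) and the NF-kB subunit Rela (0.80, adjusted p = 0.0345), all by limma. In LPS+MIC-1 against control, all 12 acute-phase genes were again higher.

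Of 13 tested genes for other liver-enriched factors, 3 were called higher, 2 lower and 8 not (median -0.25), where 34.7% of all tested genes were called. Foxa3, a forkhead relative of Foxa2, rose from 15.0, 16.8 and 13.7 FPKM to 46.8, 40.9 and 50.9 FPKM (1.58, SE 0.18, adjusted p = 0.00108, limma), and Creb3l3, a liver membrane-bound factor, rose by 0.84 (adjusted p = 0.0114). Onecut2, the relative of Onecut1, fell by 1.58 on the log2 scale (adjusted p = 0.00395, limma) and Foxa1 fell by 0.64 (adjusted p = 0.0213). Without LPS library 2, where 49.0% of all tested genes were called, 2 of 19 tested genes for other nuclear receptors were called higher, 8 lower and 9 not (median -0.61). Over all libraries 1 of the 19 was called higher, 4 lower and 14 not (median -0.13). The 4 were the retinoid X receptor Rxrg (-1.47, adjusted p = 0.00837), the thyroid hormone receptor Thra (-1.62, adjusted p = 0.0176), the retinoic acid receptor Rarg (-1.16, adjusted p = 0.0296) and the orphan receptor Nr2f2 (-1.02, adjusted p = 0.0347), all by limma. Of 8 tested coregulators of nuclear receptors, 0 were called higher, 5 lower and 3 not (median -0.87). With close libraries averaged 1 was lower and 7 were not called (median -0.80), where 631 of 10147 tested genes were called. Ppargc1b, a coactivator of mitochondrial genes, was at 13.3, 7.88 and 8.98 FPKM in control and 1.09, 2.20 and 0.544 FPKM in LPS (-2.64, SE 0.37, adjusted p = 0.00279, limma), and the corepressor Ncor1 was at 33.4, 34.2 and 29.4 FPKM and then 8.45, 15.1 and 5.12 FPKM (-1.83, adjusted p = 0.0127). Ncoa3 (-1.02, adjusted p = 0.0175) and the acetyltransferase Crebbp (-1.66, adjusted p = 0.0251) fell too.

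**Figure D4:**
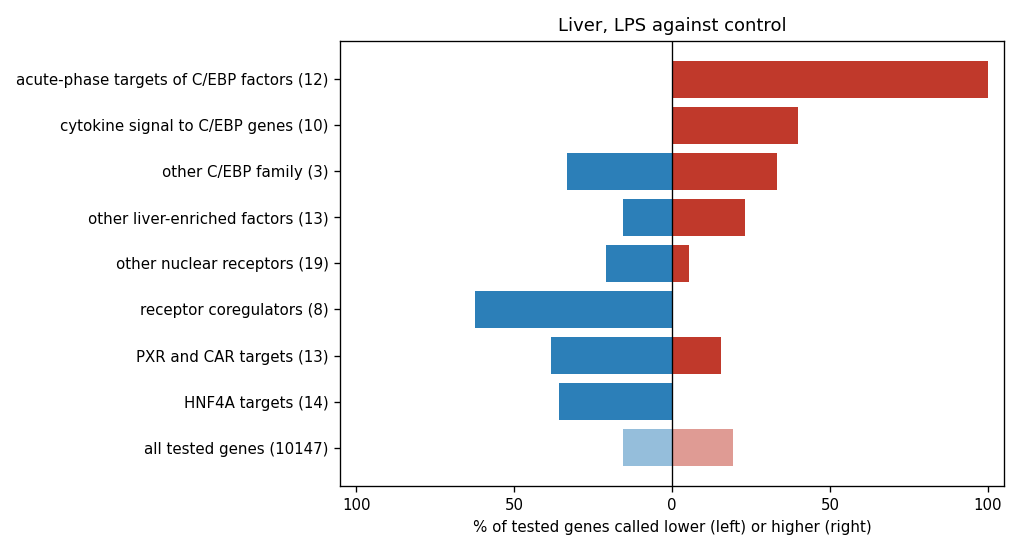
Share of the tested genes of each list (number tested in brackets) called lower (left, blue) or higher (right, red) between LPS and control in liver, in percent, with all 10147 tested genes in pale colours at the bottom. The 12 acute-phase genes are all higher, 5 of 8 coregulators are lower, and all tested genes are at 15.5% lower and 19.2% higher.

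The targets of PXR and CAR moved in both directions, and the targets of HNF4A called over all libraries were lower. Of 13 tested targets of PXR and CAR, 2 were called higher, 5 lower and 6 not, with a median of -0.01, where 34.7% of all tested genes were called. The cytochrome P450 genes Cyp2c37 (-3.13, SE 0.20, adjusted p = 0.000204), Cyp3a25 (-3.28, SE 0.50, adjusted p = 0.00368) and Cyp2c55 (-2.44, SE 0.43, adjusted p = 0.00575) fell, as did the export pump gene Abcc2 (-1.25, SE 0.21, adjusted p = 0.00506), all by limma. Cyp3a11, the main mouse target of PXR, and Cyp2b10, that of CAR, are named after their values were seen. Cyp3a11 was at 2421, 1142 and 1345 FPKM in control and 710, 416 and 616 FPKM in LPS (-1.45, adjusted p = 0.0128, limma). Cyp2b10 was at 2.58, 1.73 and 0.697 FPKM in control and 4.27, 1.91 and 5.28 FPKM in LPS, with overlap, and did not pass (1.00, adjusted p = 0.208, limma). Of 14 tested targets of HNF4A, 0 were called higher, 5 lower and 9 not (median -0.92). Without LPS library 2 these counts were 2, 8 and 4 (median -1.22), where 49.0% of all tested genes were called. Cyp7a1, the rate-limiting enzyme of bile acid synthesis, went from 19.6, 30.3 and 30.2 FPKM to 0.103, 0.927 and 0.0631 FPKM (-5.08, SE 0.37, adjusted p = 0.000246, limma). The bile acid enzyme gene Cyp8b1 (-2.72, adjusted p = 0.0078), the glucose-6-phosphatase gene G6pc (-2.67, adjusted p = 0.00521) and the urea cycle gene Otc (-1.74, adjusted p = 0.00256) fell as well, by limma. In LPS+MIC-1 against LPS, limma called 0 genes in every one of these lists, with list medians from -0.15 to 0.55 beside -0.01 over all tested genes.

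**Figure D5:**
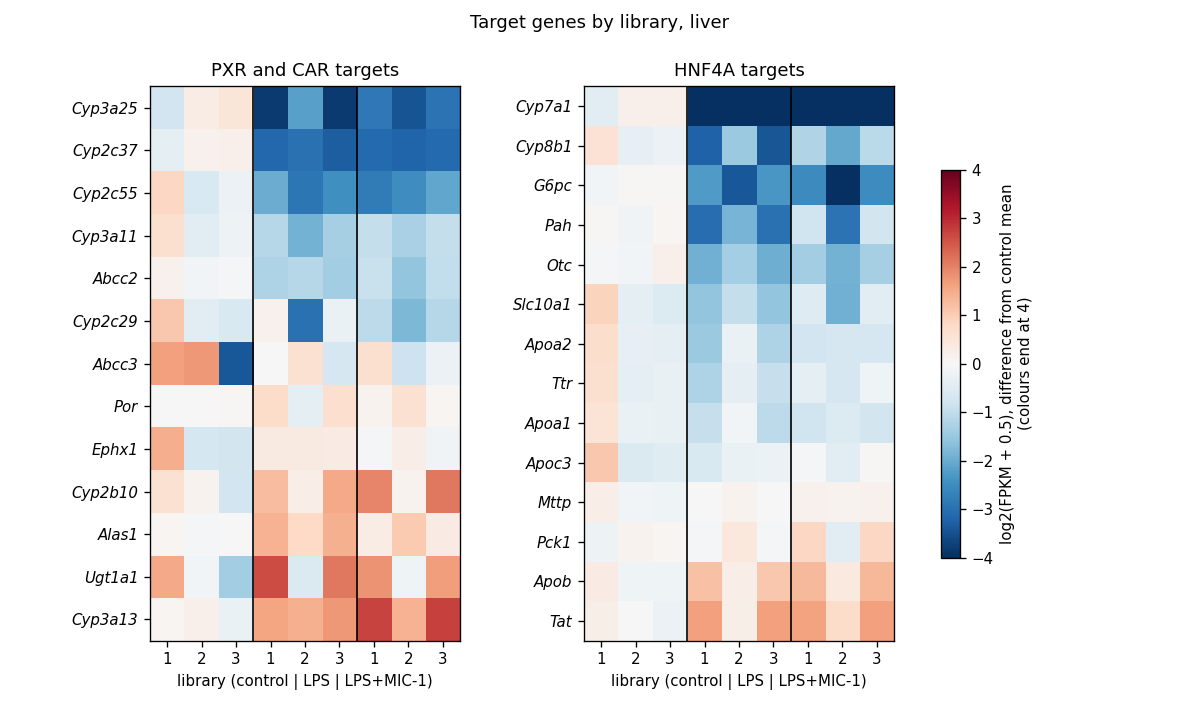
Difference of log2(FPKM + 0.5) from the control mean for 13 tested targets of PXR and CAR and 14 of HNF4A (rows, ordered by their log2 fold change) in each liver library (columns), blue lower and red higher, with colours ending at 4. Cyp3a25, Cyp2c37 and Cyp7a1 are blue in every LPS and LPS+MIC-1 library, Cyp3a13 is red in each of them, and LPS library 2 is paler than LPS libraries 1 and 3 in Cyp8b1 and Tat.

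The genes most like each member over the 9 liver libraries were found by the root mean square difference of their centred log2(FPKM + 0.5) values, among the tested genes. For Onecut1 they were the coactivator gene Ppargc1b (0.33 log2 units), the mTOR inhibitor gene Deptor (0.36) and Adh6-ps1 (0.39). For Nr1i3 they were BC024386 (0.32), Prodh2 (0.34) and Sema4g (0.35), and for Nr1i2 they were Man2b1 (0.06), Sesn1 (0.09) and Wdfy3 (0.09), genes that like Nr1i2 varied little. Cebpd lay nearest to Hnrnpa1 (0.16), St3gal5 (0.22) and 4833422F24Rik (0.22), and Cebpb lay near Atg13 (0.15) and Sesn2 (0.16). Hnf4a (Itch 0.30, Aga 0.31, Hspb6 0.32) and Foxa2 (Klc4 0.43, Wdr13 0.59, Fam109a 0.70), like Onecut1 and Nr1i3, had no gene as near as those of Cebpb. Among the members themselves the nearest pair was Cebpb with Nr1i2 (0.84), which moved in opposite directions with LPS, then Cebpb with Cebpd (0.90), and Onecut1 with Nr1i3 lay at 1.16.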

How the data were processed

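RNA-seq values of 9 mouse liver and 9 RAW264.7 libraries were used, 3 per group. The authors used Kallisto 0.45.0 with an mm9 RefSeq index on BGI reads, took gene-level counts by tximport, and deposited FPKM scaled by DESeq2 (1.20.0) size factors. The comparison tables deposited by the authors also hold a mean signal per gene (counts divided by size factors, averaged over the libraries), used only to estimate the reads behind 1 FPKM. Their log2 fold changes, standard errors, Wald scores and p-values, also deposited, were not used. The authors' own macrophage analysis left out an LPS library, which is not named in the sources used here, and all deposited libraries were kept here. All columns were matched to a group by name and 0 were left over.

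The liver and macrophage tables were fitted separately. A gene needed a mean over 1 FPKM across the 9 libraries, and the test used log2(FPKM + 0.5), which understates the change of low genes, with limma 3.58.1 (eBayes with trend, 3 groups in 1 fit, two-sided) in R 4.3.3, Benjamini-Hochberg adjustment and a threshold of 0.05. Exact permutation tests were two-sided. The pipeline was tested on simulated data. The members and gene lists were chosen with earlier results of these data known. From each list the text names the 4 genes with the smallest adjusted p between LPS and control in liver, and for each member the 3 genes nearest in profile, of which 1 is not reported here. Promoters are from RefSeq (GRCm38.p6) and gene spans from GENCODE M1. Alternatives covered the pseudocount, filter, scaling, threshold, model and left-out libraries. Averaging close libraries and leaving out both libraries 2 were alternatives added after seeing the data. The averaging joined libraries 1 and 3 of LPS and of LPS+MIC-1 only, and close control libraries stayed separate. Python 3.11.15, pandas 2.3.3 and matplotlib 3.10.9 were used.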

Additional observations from a re-analysis of the deposited data

How the results depend on the processing

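No paired analysis was possible because the columns carry no replicate numbers. Of 438 liver values of single members under the alternatives other than the 2 added later, 380 kept their direction and their side of the threshold, 13 gained a call, 35 lost it and 10 changed sign, and of 126 macrophage values 113, 5, 6 and 2 did. Every change of sign lay in a fold change that was not called. The calls of Cebpd and Onecut1 against control in liver held under all of them and under those 2. The cause of the other changes was not tested.

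In liver, the numbers of genes called were 3520 (LPS against control), 0 (LPS+MIC-1 against LPS) and 3692 (LPS+MIC-1 against control). Leaving out 1 library gave 1396 to 4967, 0 to 36 and 2035 to 4585. Array weights gave 7410, 3063 and 7473. A threshold of 0.01 gave 1178 and 1505 for the comparisons with control, and averaging close libraries gave 631 and 1409. For LPS+MIC-1 against LPS, a pseudocount of 1, quantile normalization or no trend gave 1 each, no filter gave 2 and leaving out both libraries 2 gave 373. In macrophages the numbers, in the same order, were 0, 2141 and 2456. Leaving out 1 library gave 0 to 7445, 733 to 6737 and 890 to 5972, array weights gave 8347, 7664 and 7673, and leaving out both libraries 2 gave 7780, 6886 and 6312. For LPS against control no filter gave 5 and no trend 1. For LPS+MIC-1 against LPS and against control, fitting only the 2 groups gave 554 and 5764, a minimum log2 fold change of 1 gave 823 and 1172, a threshold of 0.01 gave 617 and 866, and averaging close libraries gave 163 and 718. Rescaling to an equal sum gave 1421 against control.

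Of the members in liver, 5 were called for LPS against control, with 2 to 5 when 1 library was left out, 3 with only the 2 groups, and 2 with a threshold of 0.01 or with close libraries averaged. For LPS+MIC-1 against control 3 were called, 2 to 4 when 1 library was left out and 7 with array weights. For LPS+MIC-1 against LPS 0 were called, and 2 with array weights. In macrophages LPS against control had 0 members called, 0 to 2 when 1 library was left out, and 2 with array weights or without both libraries 2. LPS+MIC-1 against LPS had 1, with 2 after rescaling and 0 with close libraries averaged. LPS+MIC-1 against control had 2, with 1 to 2 when 1 library was left out, 1 after rescaling or with a threshold of 0.01 and 0 with close libraries averaged.

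The changes of sign were all in log2 fold changes near 0 or in Foxa2. For LPS+MIC-1 against LPS in liver, leaving out 1 library moved Cebpb between -0.47 and 0.03, Onecut1 between -0.49 and 0.05, Nr1i2 between -0.02 and 0.19 and Foxa2 between -1.58 and 0.28. Foxa2 was at 0.08 with array weights and 0.43 without both libraries 2, Hnf4a was at -0.07 after rescaling, and Nr1i2 was at -0.21 after rescaling and -0.02 with close libraries averaged. Foxa2 for LPS+MIC-1 against control ran from -0.46 to 1.74 when 1 library was left out. Macrophage Cebpb for LPS+MIC-1 against LPS ran from -0.15 to 0.53, and was at -0.06 with array weights and also without both libraries 2. Rescaling moved the median of all macrophage genes for LPS against control from -0.03 to -0.65 and, for LPS+MIC-1 against LPS, from -0.01 to 0.44 in macrophages and to -0.26 in liver. Few reads stood behind the lowest values, about 36 to 86 normalized reads for Onecut1 in LPS and 53 to 90 for Cebpd in control. Averaging close libraries lowered the calls of most gene lists for LPS against control in liver, for other nuclear receptors from 1 higher and 4 lower to 0 and 0, for other liver-enriched factors from 3 and 2 to 1 and 1, for the PXR and CAR targets from 2 and 5 to 0 and 4, for the HNF4A targets from 0 and 5 to 0 and 3 and for the cytokine signal from 4 to 2 higher.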

Other observations

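Values of 0 beside expressed levels within a group were seen beyond Foxa2, Rxra and Cebpa. Of 10147 tested liver genes, 415 (4.09%) were listed at 0 in at least 1 library while another library of the same group was above 5 FPKM, and among 9905 tested macrophage genes 96 (0.969%) were. By group, liver control had 280 such genes, LPS 130 and LPS+MIC-1 108. Mlxipl, which encodes the glucose-sensing factor ChREBP of hepatocytes, was at 66.9, 0 and 0 FPKM in control liver and at no more than 0.732 FPKM in the other 6 libraries. Atf5, a stress-response factor, was at 52.7, 50.7 and 63.0 FPKM in control, 1.499, 133.6 and 0 in LPS and 4.69, 219.9 and 13.97 in LPS+MIC-1, so the libraries 2 of both LPS groups stood above every control and the others below. Both genes were chosen after their values were seen, and the cause was not tested.

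Gapdh, a glycolytic gene often used as a reference and chosen here in the same way, was at 430.2, 68.1 and 27.7 FPKM in control liver, 1001, 157.7 and 914.3 in LPS and 520.3, 168.7 and 521.1 in LPS+MIC-1.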
